A study of Drosophila melanogaster with 2 samples.

Results

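Cuticle protein genes were compared between 1 RNA library of control flies and 1 RNA library of heterozygous taf1-mutant flies. The members were every row of the deposited gene table whose name began with Cpr and a digit, Ccp84, Lcp and a digit, Pcp, Twdl, Edg and a digit, or Cpap, together with Acp65Aa, Acp1 and resilin. This rule gave 127 of the 17559 rows. The names alone were used, with no measured value, and no row began with Cpap.

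The study asked which transcripts differ when flies have less Taf1, a subunit of the general transcription factor TFIID. Control flies carried the w1118 mutation. Mutant flies were w1118; taf1 1/+, obtained by crossing a stock that carried taf1 1, red 1 and e 1 over the balancer TM3, SB 1 to the control line, so the taf1 chromosome came with the red and e alleles. Whole bodies of 10 flies were pooled for each genotype, and neither the sex nor the age of the flies is given in the sources used here. The control library held 16753242 reads and the mutant library 32364756 reads. With 1 library per genotype there was no replicate, so every difference below is a difference between 2 libraries, and every interval is a 95% interval that covers counting error only. In whole-body RNA, fewer cells of a type and less RNA per cell cannot be told apart.

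The cuticle of an insect is secreted by the epidermis as chitin fibres in a matrix of structural proteins. Most proteins of the Cpr, Lcp, Ccp84A, Pcp and Edg families carry the Rebers-Riddiford sequence, which binds chitin, whereas the Tweedle (Twdl) proteins form a separate family, known for dominant mutants with a short, thick body. Each moult uses its own set of these genes. Larval sets are used in larvae, pupal and adult sets in the metamorphosing animal, and the last layers of adult cuticle are laid down in the first days after the fly emerges.

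Levels are given as CPM (reads per 1000000 reads of the scaled library) after scaling by TMM, which set the mutant library at 1.61 times the effective size of the control library. A gene was measured if it had at least 20 reads over both libraries. It was called higher or lower in the mutant if its ratio was at least 1.5-fold and the interval of that ratio excluded equality. Taf1 itself had 80.7 CPM in the control and 58.0 CPM in the mutant. The mutant thus had 71.9% of the control level (66.8 to 77.4), below equality but short of the 1.5-fold limit. With total reads as the scale it had 59.9% (55.6 to 64.4) and was called lower. The Taf1 transcript is long, with a median annotated length of 6649.5 nt. Its log2 ratio of mutant over control was -0.48 with TMM. Set against measured genes with transcripts of similar length, it was only -0.13. How much of the lower Taf1 level went with transcript length was not tested. Transcripts of e, whose mutant allele the taf1 chromosome carries and whose product makes N-beta-alanyl dopamine for tanning, stood at 13.5 CPM in the control and 22.6 CPM in the mutant.

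Of the 127 cuticle protein genes, 28 were listed at 0 in both libraries, 47 had 1 to 19 reads and 52 were measured. A value of 0 allows a level of up to 0.179 CPM in the control and 0.111 CPM in the mutant, by the limit of 3 reads. Such a value can be a failed estimate in this table, since the alcohol dehydrogenase gene Adh, the photoreceptor arrestin gene Arr2 and the flight muscle gene TpnC4 were also listed at 0 in both. Of the 52 measured genes, 41 had at least 20 reads in the control library alone. Cpr47Ec, Cpr76Bb, Edg78E and TwdlS had fewer than 10 control reads and passed the limit mainly through the mutant library.

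The mutant library had more cuticle protein RNA in sum, and single genes differed in both directions. Summed over all 127 genes there were 22963 control reads and 48443 mutant reads, or 1371 CPM (1353 to 1389) and 1797 CPM (1781 to 1813). The summed level was 1.31 times the control level (1.29 to 1.33). It stayed above the control level under each of the 7 scalings that were computed, the lowest value being 1.05 times. With TMM the qPCR reference genes also stood above equality, RpL32 at 1.30, eEF1alpha2 at 1.24 and Act5C at 1.22 times the control level. Among the 52 measured genes, 11 were called higher and 3 lower, and the other 38 were not called. The 11 higher genes made up 21.2% of the measured members, where 12.8% of all 11606 measured genes were called higher. The 3 lower genes made up 5.77%, where 6.16% of all measured genes were called lower. The median log2 ratio of the measured members was 0.26, with a range from -0.98 to 3.67, and 38 lay above 0 against 14 below. Over all measured genes the median log2 ratio was 0.0064, and 50.7% lay above 0.

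Cuticle protein transcripts are short, and in these libraries short transcripts had higher ratios than long ones. The measured members had a median annotated transcript length of 896.5 nt, against 1708 nt over all measured genes. Among the 2482 other measured genes with transcripts of 741 to 1289 nt, the middle length range of the members, 18.0% were called higher and 5.52% lower, and their median log2 ratio was 0.15. The members' own 21.2% stood near that 18.0%. Set against the 200 measured genes nearest in length, the members' median log2 ratio was 0.11, and 36 of 52 lay above 0. Whether length itself had a part in the difference was not tested.

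**Figure D1:**
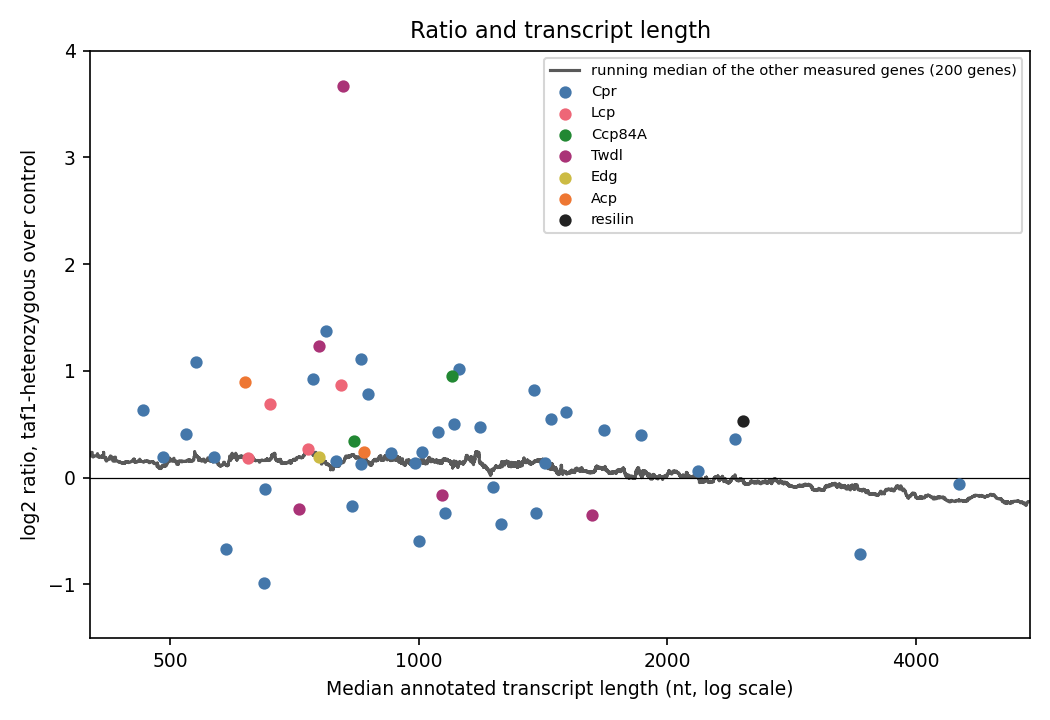
Log2 ratio of the mutant over the control library (vertical axis) against median annotated transcript length in nt (horizontal axis, log scale) for the 52 measured cuticle protein genes, coloured by family, with the running median of all other measured genes over 200 genes as a line. The line falls with length and most cuticle protein genes lie above it, and their median log2 ratio is 0.11 relative to genes of similar length.

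A handful of genes held most of the cuticle protein reads. Cpr49Ae alone took 26.5% of them in the control and 28.0% in the mutant, and Cpr92F took 14.7% and 14.8%. The 10 most abundant genes of the control held 78.4% of the reads, and the 10 most abundant of the mutant included 9 of the same genes. These shares do not depend on how the libraries are scaled to each other. By share, Acp65Aa went from 6.04% (5.74 to 6.36) in the control to 8.59% (8.35 to 8.85) in the mutant, and Cpr49Ab from 4.56% (4.30 to 4.84) to 7.53% (7.30 to 7.77). Both genes took a larger part of the cuticle protein pool in the mutant, with intervals that did not overlap. The share of Cpr62Bc was 4.82% in the control and 2.93% in the mutant, and that of Cpr49Ag was 1.84% and 0.708%.

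**Figure D2:**
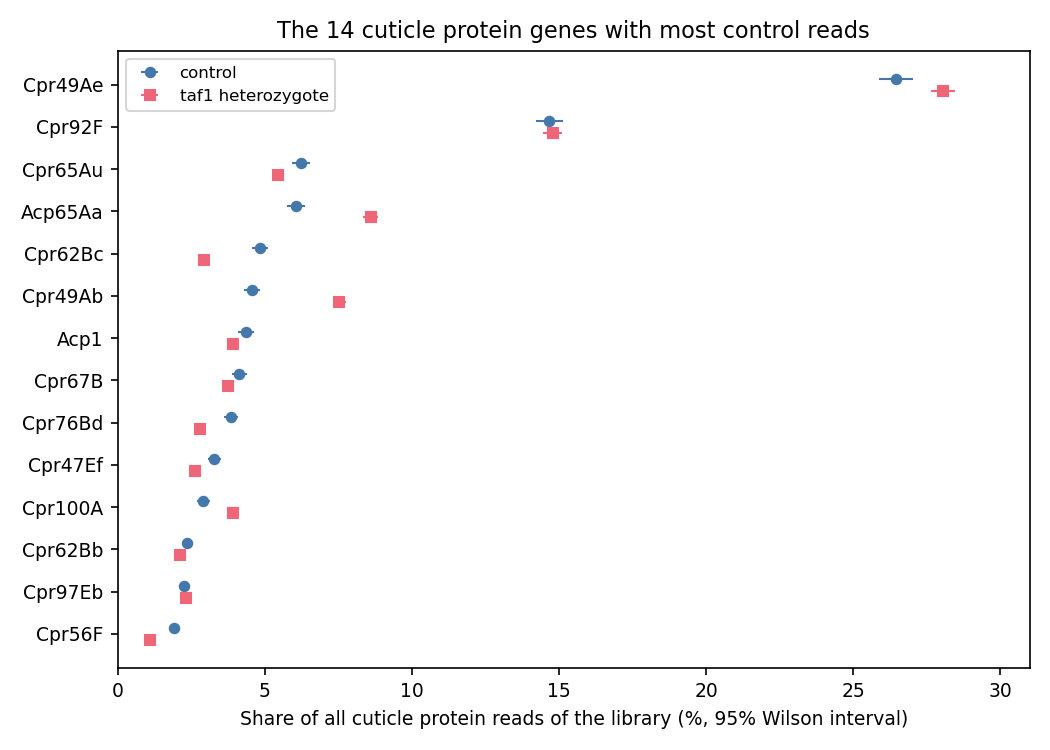
Share of all cuticle protein reads of a library (horizontal axis, %) for the 14 genes with most control reads, with 95% Wilson intervals as bars, control as circles and taf1 heterozygote as squares. Cpr49Ae holds 26.5% and 28.0% of the reads, and the shares of Acp65Aa and Cpr49Ab are larger in the mutant library while that of Cpr62Bc is smaller.

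Both genes named for adult cuticle were among the 8 with the highest level per transcript length. Acp65Aa, an adult cuticle protein made by the epidermis as it lays down adult cuticle, had 1388 control reads and 4163 mutant reads, at 82.8 CPM and 154 CPM. It was called higher, with a log2 ratio of 0.90 (0.81 to 0.99), under 6 of 7 scalings. With qPCR reference genes as the scale its log2 ratio was 0.57 and the call was lost. Acp1, the other adult cuticle protein of the set, had 1000 and 1903 reads, at 59.7 CPM and 70.6 CPM, and was not called at a log2 ratio of 0.24 (0.13 to 0.35). The ratio of Acp65Aa reads to Acp1 reads within a library was 1.39 in the control and 2.19 in the mutant. The reads of both genes thus differed by unequal factors, whatever the scaling. The level of Acp65Aa was 135 CPM per kb of transcript in the control and 251 CPM per kb in the mutant, second to Cpr49Ae in the mutant.

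The Cpr family, the largest group of chitin-binding cuticle proteins, had 70 rows, of which 13 were listed at 0 in both libraries, 20 had 1 to 19 reads and 37 were measured. Of these 37, 6 were called higher (16.2%) and 3 lower (8.11%). The shares were 12.8% and 6.16% over all measured genes. They were 18.0% and 5.52% over other genes in the members' middle length range. The median log2 ratio of the 37 was 0.23. With total reads as the scale that median turned to -0.031, and with 3 qPCR reference genes as the scale to -0.092. The summed level of the family was 1.28 times the control level (1.26 to 1.30).

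Cpr49Ae had the highest level of all cuticle protein genes per transcript length. It had 6074 control reads and 13585 mutant reads, at 306 and 425 CPM per kb. Its log2 ratio of 0.47 (0.43 to 0.52) was above equality but below the 1.5-fold limit, and it was not called. Cpr65Au stood at 174 and 200 CPM per kb, with a log2 ratio of 0.20 (0.10 to 0.29), and Cpr92F at 108 and 143 CPM per kb, with a log2 ratio of 0.40 (0.34 to 0.46). Neither was called, and at total-read scaling the log2 ratio of Cpr65Au was -0.066. Cpr67B, at 56.1 and 66.3 CPM per kb, had a log2 ratio of 0.24 (0.13 to 0.36). Cpr62Bc had 1107 control reads, 1418 mutant reads and a log2 ratio of -0.33 (-0.44 to -0.21), the only ratio below 1 among the 8 genes with the highest level per length under TMM. It was not called, but with total reads as the scale its log2 ratio was -0.59 and it was called lower. At that scale the point estimates of Cpr65Au, Acp1 and Cpr67B were -0.066, -0.022 and -0.022, just under 0, and none was called.

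**Figure D3:**
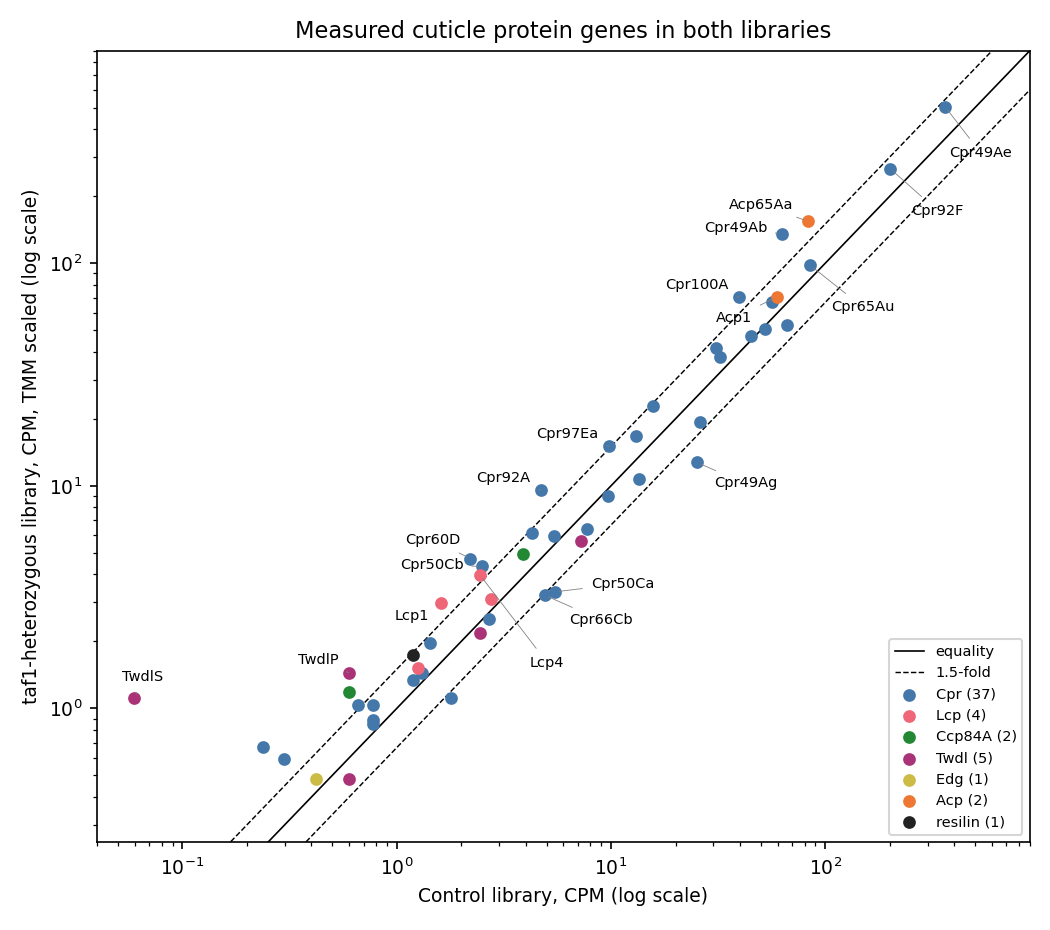
Level of each of the 52 measured cuticle protein genes in the control library (horizontal axis) and the mutant library (vertical axis), in CPM on log scales, coloured by family. The solid line is equality and the dashed lines are 1.5-fold. Most points lie within the dashed lines, with Cpr49Ab, Acp65Aa and Cpr100A above them at high level and Cpr49Ag below.

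Among the Cpr genes called higher, Cpr49Ab and Cpr100A carried the most reads. Cpr49Ab had 1048 control reads and 3649 mutant reads, at 62.6 CPM and 135 CPM, and a log2 ratio of 1.11 (1.01 to 1.21). Cpr100A had 665 and 1894 reads, at 39.7 CPM and 70.3 CPM, and a log2 ratio of 0.82 (0.70 to 0.95). The other 4 had lower levels, from 2.21 CPM to 9.79 CPM in the control. Cpr92A had 79 and 258 reads, with a log2 ratio of 1.02 (0.65 to 1.40). Cpr60D had 37 and 127 reads, with a log2 ratio of 1.08 (0.55 to 1.66). Cpr50Cb had 42 and 117 reads, with a log2 ratio of 0.78 (0.27 to 1.34). Cpr97Ea, just past the limit, had 164 and 405 reads and a log2 ratio of 0.62 (0.35 to 0.89). Set beside genes of similar length the log2 ratio of Cpr97Ea was 0.57, and it was no longer called.

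The 3 genes called lower all belonged to the Cpr family. Cpr49Ag had 422 control reads and 343 mutant reads, at 25.2 CPM and 12.7 CPM, and a log2 ratio of -0.98 (-1.20 to -0.78). Cpr50Ca had 92 and 90 reads, at 5.49 CPM and 3.34 CPM, and a log2 ratio of -0.71 (-1.15 to -0.28). Cpr66Cb had 82 and 87 reads, at 4.89 CPM and 3.23 CPM, and a log2 ratio of -0.60 (-1.05 to -0.15). All 3 were also called lower under each of the 7 scalings and against genes of like length. Under the same 7 scalings, Cpr49Ab, Cpr60D and Cpr92A were called higher each time. TwdlS was too, but it had 1 control read and passed the low-read limit only through the library where it is high. With at least 20 reads asked of the control library, TwdlS and TwdlP dropped out, leaving 41 measured genes, 9 higher and 3 lower. These shares of 22.0% and 7.32% stood beside 11.5% and 6.26% of all genes measured under that limit. With total reads as the scale Acp65Aa was also called higher, whereas Cpr97Ea, Cpr50Cb, Cpr100A, Lcp1, Lcp4 and TwdlP were not, and Cpr47Ee, Cpr49Aa, Cpr56F, Cpr62Bc and TwdlG joined the lower calls. Set beside genes of similar length, 9 genes were called higher and 4 lower, the additional one being Cpr49Aa.

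**Figure D4:**
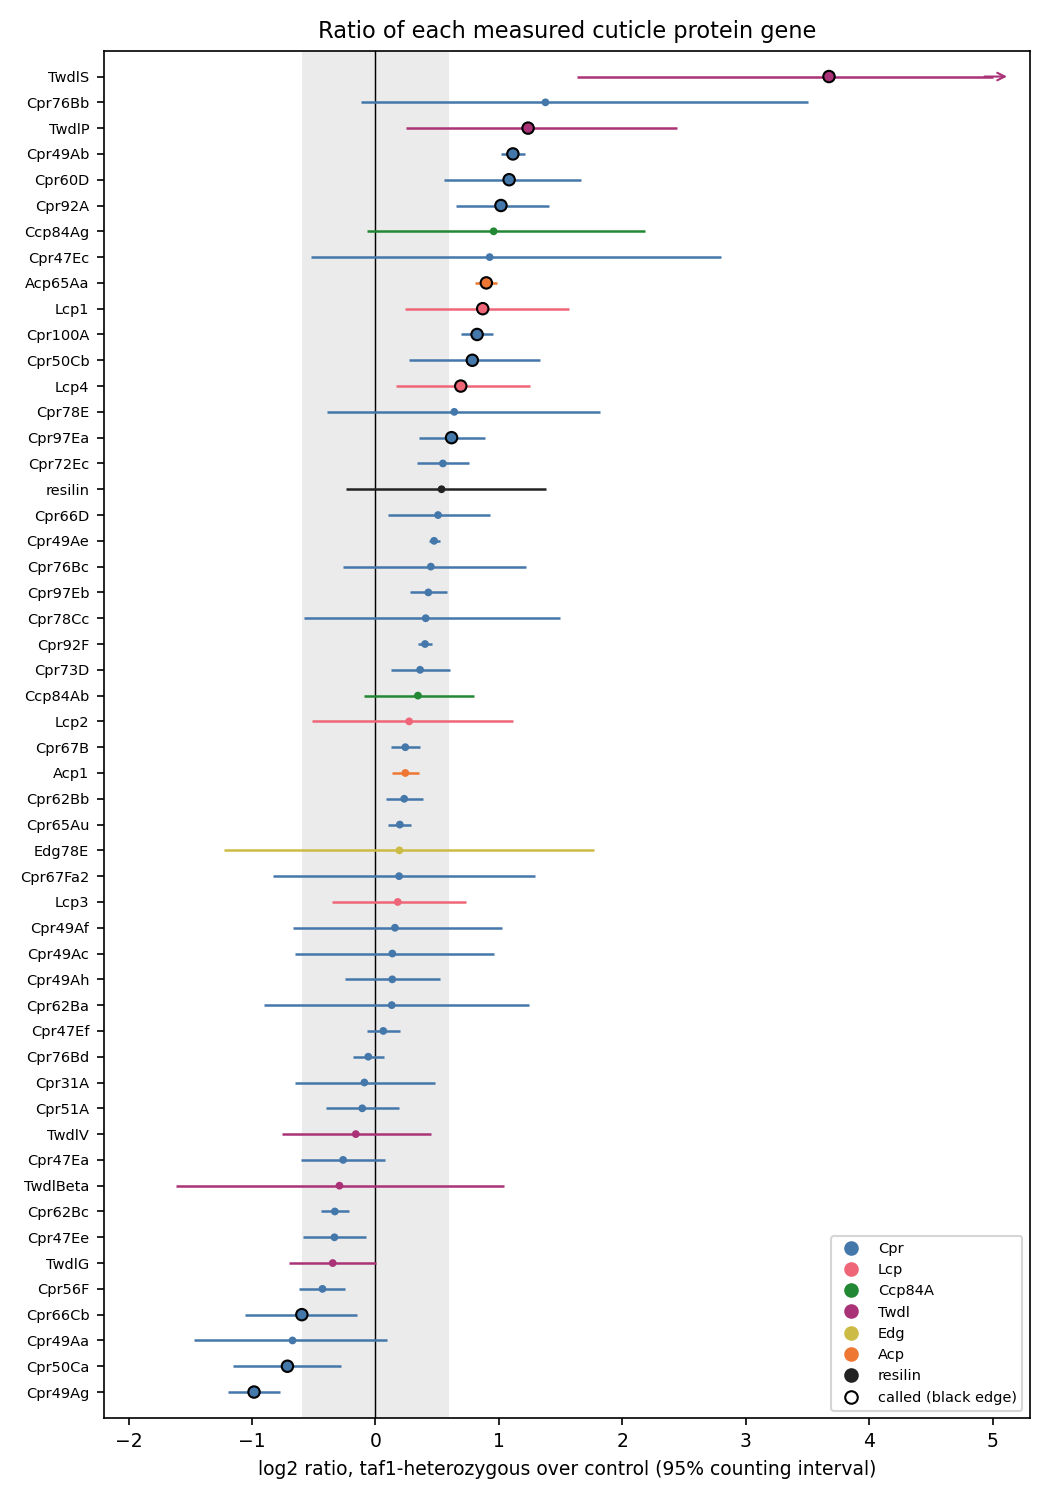
Log2 ratio of the mutant over the control library (horizontal axis) for the 52 measured cuticle protein genes, in order of ratio and coloured by family, with lines for the 95% counting interval, a grey band for less than 1.5-fold and a black edge on called genes. The interval of TwdlS, which had 1 control read, runs off the axis to 9.57. Of the 52 genes 25 have an interval that includes equality.

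The Lcp genes, named as cuticle proteins of the larva, were scarce. Of 17 rows, 4 were listed at 0 in both libraries, 9 had 1 to 19 reads and only Lcp1, Lcp2, Lcp3 and Lcp4 were measured. These 4 lie together on 2R, from 8430115 to 8438495 in BDGP6. Lcp1 had 27 control reads and 80 mutant reads, with a log2 ratio of 0.87 (0.24 to 1.57), and was called higher. Lcp4 had 41 and 107 reads, with a log2 ratio of 0.69 (0.17 to 1.25), and was called higher too, though not against genes of like length, where its log2 ratio was 0.52. Lcp2 (21 and 41 reads) and Lcp3 (46 and 84 reads) were not called. All 4 stood under 4 CPM in both libraries. Lcp1 and Lcp2, and Lcp3 and Lcp4, are near copies of each other, so reads could have been split between them.

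In the Tweedle family, 1 group of neighbouring genes had a scaled level above the control and the sum of the other genes did not. Of 26 Twdl rows, 9 were listed at 0 in both libraries, 12 had 1 to 19 reads and 5 were measured. The summed Twdl level was 1.04 times the control level (0.87 to 1.24), and the median log2 ratio of the 5 measured genes was -0.16. The 12 Twdl genes on 3R from 26619118 to 26641054 had 20 control reads and 101 mutant reads in sum, a ratio of 3.14 (1.93 to 5.36). The other 14 Twdl genes had 190 and 249 reads, a ratio of 0.81 (0.67 to 0.99). This grouping was made after the values were seen, and no test was made of it.

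Within the 3R group the mutant reads came mostly from TwdlS and TwdlP, both of which have fewer than 50 reads and are named because they were called. TwdlS had 1 control read and 30 mutant reads, a ratio of 18.6 with a counting interval of 3.10 to 761. TwdlP had 10 and 39 reads, with a log2 ratio of 1.24 (0.25 to 2.44). Without TwdlS the group had 19 and 71 reads, a ratio of 2.32 (1.38 to 4.08). Without both genes it had 9 and 32 reads, a ratio of 2.21 (1.03 to 5.26). At total-read scaling the interval of that last ratio, 0.859 to 4.38, included equality.

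The Ccp84A genes, a cluster of chitin-binding cuticle proteins, and Edg84A, a gene named for its dependence on the moulting hormone ecdysone, lie beside Taf1 on 3R. The 8 genes lie 28.4 to 48.0 kb from it, between 6684445 and 6704903, on the same chromosome as the mutation. Edg84A was listed at 0 in both libraries. Ccp84Ab, the most abundant, had 65 control reads and 133 mutant reads, with a log2 ratio of 0.34 (-0.09 to 0.80). Ccp84Ag had 10 and 32 reads, with a log2 ratio of 0.96 (-0.07 to 2.18). Neither measured gene was called. The other 5 had 1 to 14 reads in each library, and Ccp84Ac, with 1 and 10 reads, had a ratio of 6.22 with a counting interval of 0.884 to 269.7. The sum of the 8 genes was 90 and 206 reads, a ratio of 1.42 (1.11 to 1.84), which at total-read scaling became 1.18 (0.92 to 1.54). Over the whole 3R arm, 5 of 11 measured members (45.5%) were called higher and 0 lower, 12941 kb (Cpr92A) to 24211 kb (Cpr100A) from Taf1. They include TwdlS and TwdlP, with 1 and 10 control reads. On 2R 5 of 22 were higher and 2 lower, on 3L 1 of 17 and 1, and on 2L 0 of 2. Of all measured genes 12.8% were called higher, a share not given by arm here. The part of the mutant chromosome was not tested.

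The small families gave few reads. Pcp, a pupal cuticle protein gene, was listed at 0 in both libraries. Edg78E, a pupal cuticle gene that responds to ecdysone, had 7 control reads and 13 mutant reads, a log2 ratio of 0.19 (-1.22 to 1.77). The resilin gene, which encodes the rubber-like protein of the wing hinge and tendons, had 20 and 47 reads, a log2 ratio of 0.54 (-0.24 to 1.38). Neither difference was detectable at this depth. Of the genes with 1 to 19 reads, 11 had reads in the mutant library only and 2 in the control library only. Their sum was 108 and 217 reads, a ratio of 1.25 (0.99 to 1.59). In this group the intervals of Cpr47Eg (1 and 12 reads) and Cpr72Eb (13 and 6 reads) excluded equality, in opposite directions.

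Cuticle protein genes lie in clusters, and in 1 of them neighbours were called in opposite directions. With gaps of at most 20 kb, 91 of the 127 genes fell into 15 clusters of 3 or more. Of the 10 clusters with 2 or more measured genes, 4 held point estimates on both sides of equality, though in the 47E and 76B clusters the genes of at least 1 side had intervals that included equality. The 49A cluster, on 2R from 12376626 to 12415170, held both the Cpr gene with the largest called ratio and the one with the smallest. Cpr49Ab and Cpr49Ag lie 29.4 kb apart, and the ratio of their reads within a library was 2.48 in the control and 10.6 in the mutant. Cpr49Ab made up 71.3% (68.9 to 73.5) of the reads of the pair in the control and 91.4% (90.5 to 92.2) in the mutant, a comparison within each library that needs no scaling. The other measured genes of the cluster, Cpr49Ac, Cpr49Ae, Cpr49Af and Cpr49Ah, had log2 ratios from 0.14 to 0.47, and Cpr49Aa had 30 reads in each library and a log2 ratio of -0.67 (-1.47 to 0.09), which was called lower only with total reads, qPCR reference genes or like-length genes as the yardstick.

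The 65A cluster, on 3L from 6130386 to 6161589, showed a second kind of contrast. Of its 19 genes, Acp65Aa and Cpr65Au had 1388 and 1427 control reads, whereas the other 17, mostly larval Lcp65A genes, had 22 control reads and 40 mutant reads in all. The ratio of those 17 genes was 1.13 (0.66 to 2.00). Acp65Aa took 49.3% of the reads of the Acp65Aa and Cpr65Au pair in the control and 61.3% in the mutant. These pairs were chosen after the values were seen.

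**Figure D5:**
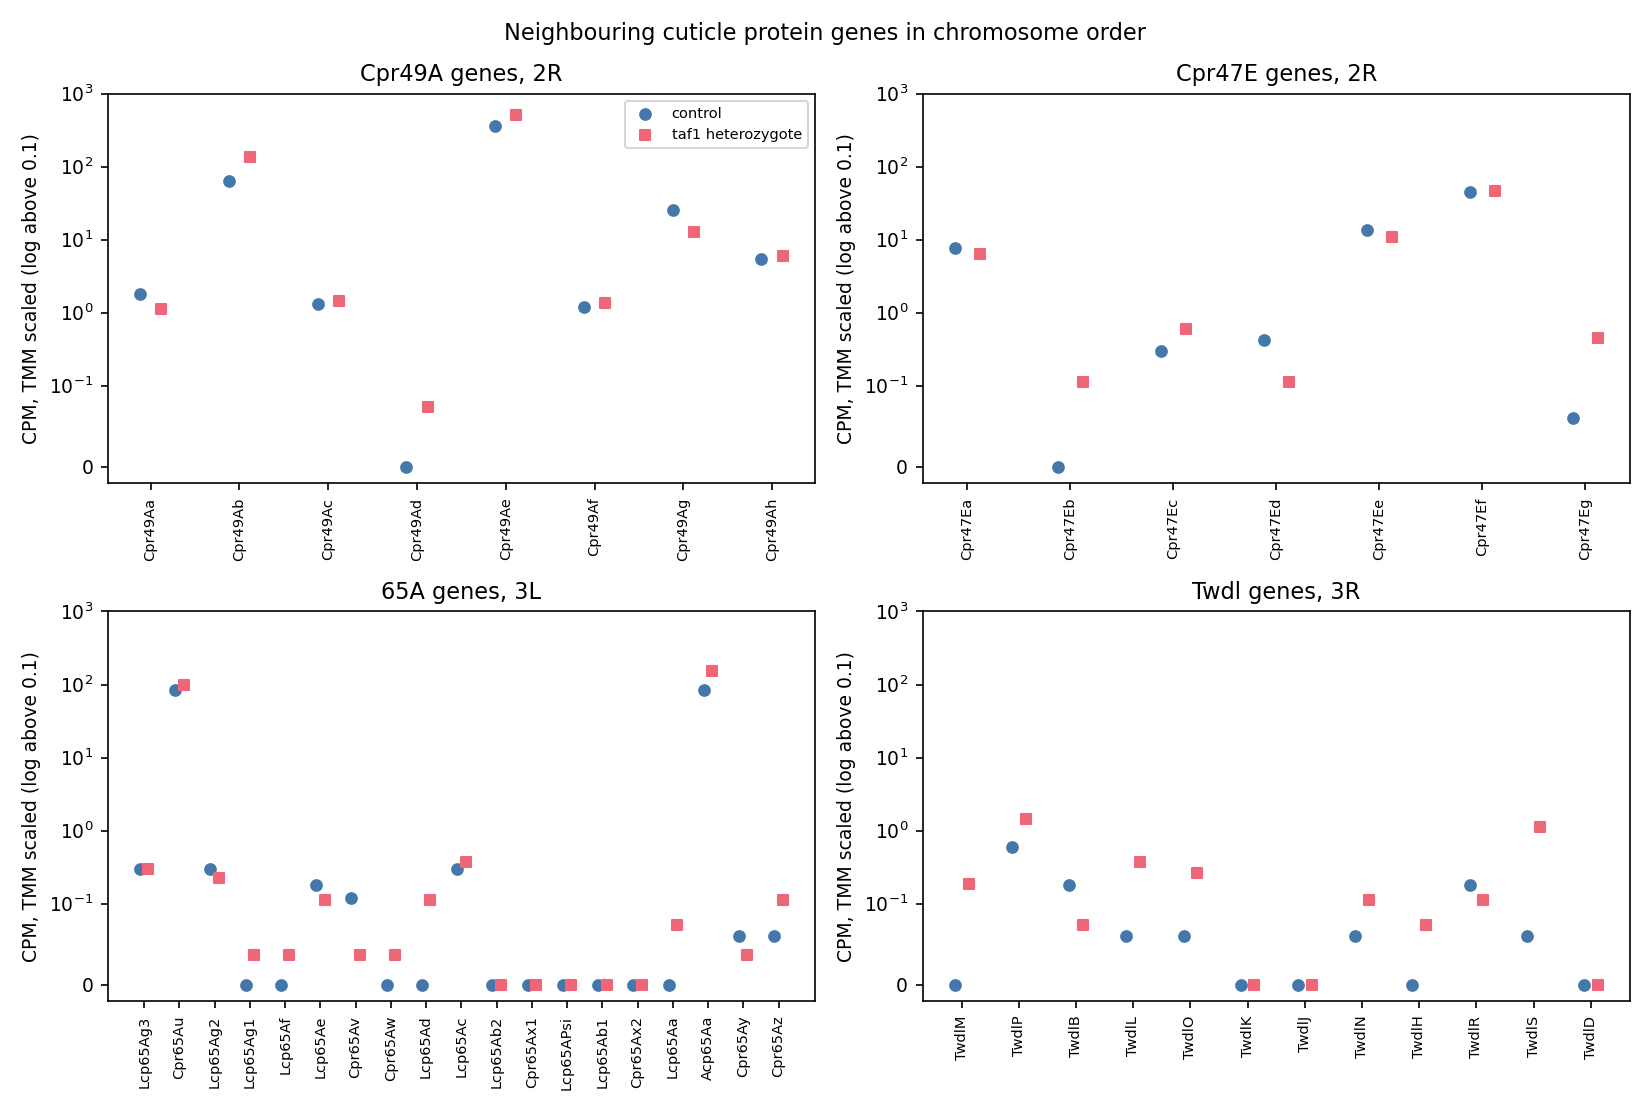
Level in CPM (vertical axis, log scale above 0.1 CPM and linear below) of each gene of 4 clusters in chromosome order, control as circles and taf1 heterozygote as squares. In the 49A cluster Cpr49Ab is higher and Cpr49Ag lower in the mutant library, and in the 65A cluster Acp65Aa and Cpr65Au stand far above their neighbours.

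A very short first coding exon, which the name rule did not use, was more frequent among the members than among other genes. In 43 of the 124 protein-coding members (34.7%) the first coding exon held exactly 12 bases, which is 4 codons, against 104 of the 13727 other protein-coding genes (0.758%). The share was 7 of 7 in the Ccp84A cluster, 27 of 70 in the Cpr family and 5 of 15 in the Lcp genes. It was 0 of 25 in the Twdl family, where 12 genes had a first coding exon of 18 bases or less. The median coding length was 574.5 bases in the members and 1188 bases in the other genes.

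Genes of chitin, tanning, cuticle anchoring and moulting were counted in the same way, from lists drawn up by function. In whole-body RNA the tissue their reads came from is not known, and a listed gene need not act in cuticle. These lists and the tissue lists below are to be read against 12.8% of all measured genes called higher and 6.16% called lower. With total reads as the scale these shares became 7.0% and 19.1%. Of 15 measured genes for chitin synthesis and organisation, 5 were called higher and 0 lower, with a median log2 ratio of 0.33. These were the chitin-binding matrix genes obst-A (136 and 580 reads, log2 ratio 1.40), obst-B (202 and 544, 0.74) and Gasp (1177 and 3212, 0.76), the chitin deacetylase verm (825 and 2113, 0.67) and rtv, which is needed for chitin fibre organisation (48 and 141, 0.86). Of 16 measured genes for chitin breakdown, 5 were called higher and 0 lower, with a median log2 ratio of 0.46. They were the chitinases Cht2 (116 and 434 reads, 1.21), Cht5 (56 and 187, 1.05) and Cht9 (14 and 60, 1.38) and the chitinase-like growth factors Idgf2 (1114 and 2991, 0.74) and Idgf5 (123 and 713, 1.84). The chitinase-like proteins have lost the catalytic activity that gives the list its name. With total reads as the scale, rtv and obst-A were left of the first list and Cht2, Cht5, Cht9 and Idgf5 of the second. The list medians were then 0.067 and 0.20. With TMM and against genes of like length they were 0.35 and 0.50.

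Of 19 measured genes on the list of sclerotisation and tanning, 6 were called higher and 0 lower, with a median log2 ratio of 0.29. Besides e, with 226 control reads, 608 mutant reads and a log2 ratio of 0.74 (0.52 to 0.97), they were yellow-c (40 and 199 reads), yellow-e2 (17 and 60), yellow-f2 (208 and 758), yellow-h (139 and 354) and the peroxidase Pxd (92 and 266), with log2 ratios from 0.66 to 1.62. The yellow gene itself, y, was listed at 0 in both libraries. With total reads as the scale, yellow-c, yellow-e2 and yellow-f2 were the ones still called, and the list median was 0.047. With TMM and against genes of like length the list median was 0.16. Of 9 measured genes on a list of zona pellucida proteins, which anchor the cuticle to the epidermis (8 of the 9, since trn encodes a leucine-rich-repeat membrane protein), neo was called higher (49 and 120 reads, 0.60) and tyn lower (306 and 316 reads, -0.64), the former not at total-read scaling. Of 21 measured genes of the moulting hormone and of eclosion, 1 was called in each direction, with a median log2 ratio of 0.0033. Against genes of like length that median was 0.20, where the cuticle protein members had 0.11. The nuclear receptor gene Hr46, an early-late gene of the ecdysone response, was lower (169 and 153 reads, -0.83). The gene nvd, for the first step of ecdysone synthesis, was higher at 4 and 33 reads and is named for being the only one. Its log2 ratio was 2.22 (0.87 to 4.32), and nvd passed the low-read limit only through the library where it is high. Of the 2 measured genes among 7 other cuticle proteins, CG2837 was higher (43 and 133 reads, 0.93) and CG30101 lower (49 and 47 reads, -0.74).

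Genes of some other tissues differed between the libraries as well. Of 8 measured fat body genes, 7 were called higher, with summed levels of 1304 CPM in the control and 2176 CPM in the mutant and Adh listed at 0. Of 10 measured gut genes, 7 were called higher, with summed levels of 2004 CPM and 3282 CPM. The gene Jon65Aiv held 46.4% of the control gut sum and was not among the 7. The other 9 gut genes summed to 1074 CPM and 2614 CPM, a ratio of 2.44 (2.40 to 2.48). Larval serum protein genes, storage proteins and a receptor of the larval fat body, had 3 of 5 called higher, with summed levels of 50.6 CPM and 79.6 CPM. Of these Lsp2 had 27 and 274 reads, Fbp1 had 117 and 404, and Lsp1alpha had 19 and 76, and Lsp2 and Fbp1 also belong to the fat body list. The 8 tracheal and epidermal genes, the list nearest to the cells that secrete cuticle, had a median log2 ratio of 0.14, with verm and Gasp, both also counted in the chitin list, called higher and none listed at 0. Their summed levels were 1258 CPM and 1113 CPM, but the cytoskeletal linker gene shot held 80.5% of the control sum, at 1013 CPM and 772 CPM. The other 7 genes summed to 245 CPM and 341 CPM, a ratio of 1.39 (1.34 to 1.44). Against genes of like length the median log2 ratio of all 8 was 0.34. At total-read scaling 4 fat body genes, 4 gut genes and 3 larval serum protein genes were still called higher. The gut gene Jon65Aiv was called lower there, and of the tracheal and epidermal genes 0 were called higher and 2 lower. Mitochondrially encoded reads made up 2.91% of the control library and 15.2% of the mutant library. The part of these differences in the cuticle protein result was not tested, and the age of the flies cannot be told apart from the genotype here.

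The whole-body label fitted the markers of muscle, eye, gut and testis. Muscle genes summed to 21415 CPM and 25356 CPM, eye genes to 7315 CPM and 7526 CPM, and testis genes to 5309 CPM and 6294 CPM. Called higher were 2 of 11 measured muscle genes, 0 of 9 eye genes and 5 of 18 testis genes, and 0 were called lower. With total reads as the scale, 4 testis genes were called higher and 4 lower. Yolk and eggshell genes summed to only 22.9 CPM and 21.2 CPM, with 383 and 572 reads. Of the 6 measured, 1 was called higher and 2 lower. In both libraries testis genes were thus far above yolk and eggshell genes, the pattern of mostly male pools. The sex of the flies is not given, and its part in the differences was not tested. Of these lists TpnC4 (muscle), Arr2 (eye), sa and fzo (testis) and Cp36, Cp38 and Cp19 (eggshell) were listed at 0 in both libraries.

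Some members share bases with other genes. Exons of Cpr65Au overlap the antisense gene CR46005 over 93.4% of their length, and those of TwdlE overlap lectin-28C on the other strand over 71.9%. Cpr73D overlaps Nc73EF, which had 18083 and 33112 reads, over 9.70% of its exon length on the other strand. Whether the counting used strand is not given in the sources used here. Without the genes that overlap another gene or have a near copy, 106 rows remained and 44 were measured, with a median log2 ratio of 0.29. Of the 44, 9 were called higher (20.5%) and 3 lower (6.82%). The shares were 12.8% and 6.16% over all measured genes, and 18.0% and 5.52% over other genes in the members' middle length range.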

How the data were processed

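RNA of 10 pooled whole flies per genotype was prepared with a stranded mRNA kit and sequenced by a genomics core. The authors deposited 1 table of 17559 genes with 1 column per library, and its values are a signal, read counts scaled by the authors with a single factor for each library. Each column was divided by its smallest positive value (1.31 in the control, 0.794 in the mutant), which turned 100% of values into whole reads, to within 0.001. The analysis had been laid out for raw counts and was run on these recovered reads. The submitters' processing notes name the build BDGP 6. For aligner, counting tool and annotation, the names are not given in the sources used.

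Gene positions and lengths were taken from the Ensembl release 115 annotation of BDGP 6. Of the table's gene names 12888 matched by symbol, 4514 by synonym and 157 not at all, and all 127 members matched. Promoter and protein sequences were not used here. Libraries were scaled by TMM (edgeR 4.0.16, R 4.3.3). With 0 residual degrees of freedom, no count model was fitted and no p-value was computed. Ratios have exact 95% conditional binomial intervals, levels exact Poisson intervals and shares Wilson intervals (Python 3.11.15, scipy 1.17.1). Log2 ratios used a prior count of 0.5. Intervals cover counting error only, since each genotype has 1 library. They treat reads as independent, so PCR copies of a molecule would make them too narrow. Depth was 16753242 reads in the control and 32364756 in the mutant. The calculation was tested on simulated data. These were drawn with counting error only and with as many genes raised as lowered, a simpler setting than the real libraries.

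Named genes were called members that had 50 reads or more in 1 library, the 8 members with the highest level per length, measured members of families of 4 or fewer rows, members within 100 kb of Taf1, and Taf1 and e, with called genes of the other lists that had at least 50 reads. The members and lists were chosen with earlier results of these data known. Alternatives were scaling by total reads, median of ratios (DESeq2 1.42.0), upper quartile, 3 qPCR reference genes (RpL32, eEF1alpha2 and Act5C), the values as deposited or TMM without mitochondrially encoded genes, other read and fold limits, a prior count of 2, comparison with genes of like length, and leaving out members with a near copy or an overlap.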

Additional observations from a re-analysis of the deposited data

How the results depend on the processing

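The calls depended on scaling and on the fold limit. Of the 11 genes called higher, scaling by total reads left 5, scaling by qPCR reference genes 4, a fold limit of 2 left 5, and no fold limit gave 21. The 3 lower calls became 8, 9, 0 and 6 under these settings. In the same order, 9.6%, 7.7%, 9.6% and 40.4% of the members were called higher. The shares of all measured genes called higher were 7.0%, 6.2%, 5.8% and 31.9%. For lower calls the members' shares were 15.4%, 17.3%, 0% and 11.5%. Those of all measured genes were 19.1%, 23.7%, 1.7% and 30.4%. The median log2 ratio of 0.26 turned to -0.0034 with total reads and -0.064 with qPCR reference genes, and was 0.11 against genes of like length. For the Cpr genes it turned to -0.031 and -0.092. For the Twdl genes it turned to 0.26 with no limit on low reads. The cause was not tested, except that these scalings move every gene alike. The median of all measured genes went to -0.26 and -0.32 under them, and the members' median stayed 0.25 above it. The summed level, 1.31 times the control, was 1.09 with total reads, 1.05 with qPCR reference genes, 1.28 as deposited and 1.28 without Cpr49Ae. Of all calls among measured genes, 67.5% were higher with TMM, 26.8% with total reads, 20.8% with qPCR reference genes, 77.2% at a fold limit of 2 and 51.2% with no fold limit. Median of ratios, upper quartile and TMM without mitochondrially encoded genes gave 11 higher and 3 lower. No replicate could be left out, and depth limits the 47 genes with 1 to 19 reads to ratios with wide intervals. No paired analysis was possible because each genotype has 1 library.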
